A study of Bos taurus with 18 samples.

Results

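Blastocysts were set against germinal vesicle (GV) oocytes, the last and the first stage of a series on genome activation in cattle embryos. The comparison took the 3 blastocyst and the 3 GV oocyte libraries by their labels, 6 of 18 libraries in all, and asked which transcripts were back at the oocyte level, which were gone and which were new. Each library came from a pool of 10 blastocysts or 10 oocytes. The blastocysts were produced by in vitro maturation, in vitro fertilisation and culture, from German Simmental oocytes and the semen of a Zebu bull, and are labelled German Simmental x Brahman. The GV oocytes were German Simmental, taken from abattoir ovaries, stripped of cumulus cells and frozen before maturation. Stage, fertilisation, culture and breed of the genome therefore changed together between both groups and cannot be told apart. The 12 libraries between them, metaphase II (MII) oocytes and embryos with 4, 8 and 16 cells, served to place the time of each change.

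A GV oocyte is full grown and arrested in meiosis, and holds a store of messenger RNA on which the early embryo runs. This store is cleared during maturation and the first cleavages while transcription passes to the embryo's own genome, which in cattle takes place mainly between the 8-cell and the 16-cell stage. The blastocyst has the first separate tissues: an outer epithelium, the trophectoderm, which pumps fluid into a cavity, and an inner cell mass, from which the hypoblast splits off.

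The libraries held 6166692 to 11203818 reads assigned to genes in blastocysts and 6485098 to 8884233 in GV oocytes, with reads in 14760 to 15399 and in 13560 to 14258 genes. The deposited values are variance-stabilised counts. Their inverse gave whole reads, and a level below is a scaled count, the reads times a factor that puts all libraries on a common scale. On this scale 1 read stood for 0.667 to 1.1 in blastocysts and for 0.706 to 0.948 in GV oocytes. Rank correlations across genes, which are not independent replicates, were 0.931 to 0.949 among blastocyst libraries, 0.942 to 0.946 among GV oocyte libraries and 0.629 to 0.666 between the stages. Most markers went with the labels. The 9 oocyte markers summed to 130 to 274 in blastocysts and to 69171 to 98027 in GV oocytes. The 7 trophectoderm markers summed to 21525 to 51221 in blastocysts and to 598 to 956 in GV oocytes. The blastocyst sums came mostly from KRT8 and KRT18 and the GV oocyte sums mostly from GATA2, while CDX2 overlapped between the stages. Sums of the 4 hypoblast markers were 5937 to 8537 in blastocysts and 4.24 to 106 in GV oocytes, but rested on GATA6 and PDGFRA: SOX17 had 0, 1.1 and 0 in blastocysts and 0 reads in GV oocytes, and GATA4 had 17.3, 2.19 and 20.3 in blastocysts and 4.74, 0 and 69.7 in GV oocytes. The 4 inner cell mass markers summed to 2088 to 4056 in blastocysts and 362 to 546 in GV oocytes, in blastocysts mostly from POU5F1, while SOX2 overlapped between the stages and TDGF1 was at most 2 in a blastocyst library. Levels are relative to the other RNA of a library, so less RNA per cell, fewer cells of a type and a change in total RNA cannot be told apart.

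Of 17138 genes tested with limma on the deposited log2-like values, 4383 were higher in blastocysts (25.6%) and 3490 were lower (20.4%) at an adjusted p under 0.05, together 45.9%. Leaving out any 1 of the 6 libraries kept 3088 of the higher and 2613 of the lower calls in every case. Unadjusted, 9007 genes had a p under 0.05. Blastocyst and GV oocyte libraries lay fully apart in 9757 genes (56.9%), 5474 with blastocysts above (31.9%) and 4283 with blastocysts below (25.0%). A gene was counted at the oocyte level when the 95% confidence interval of its difference lay within 1 of 0, about a doubling either way, and it was not called. This held for 467 genes (2.72%), and 8798 genes (51.3%) were neither called nor shown to be at the oocyte level. The median standard error of a difference was 0.691, so the interval of most genes was wider than that margin. The median difference over all genes tested was 0.26. Setting the libraries' distributions equal (quantile normalization) moved this median to 0.03 and the share of calls that were higher to an even split, against 55.7% as deposited.

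**Figure D1:**
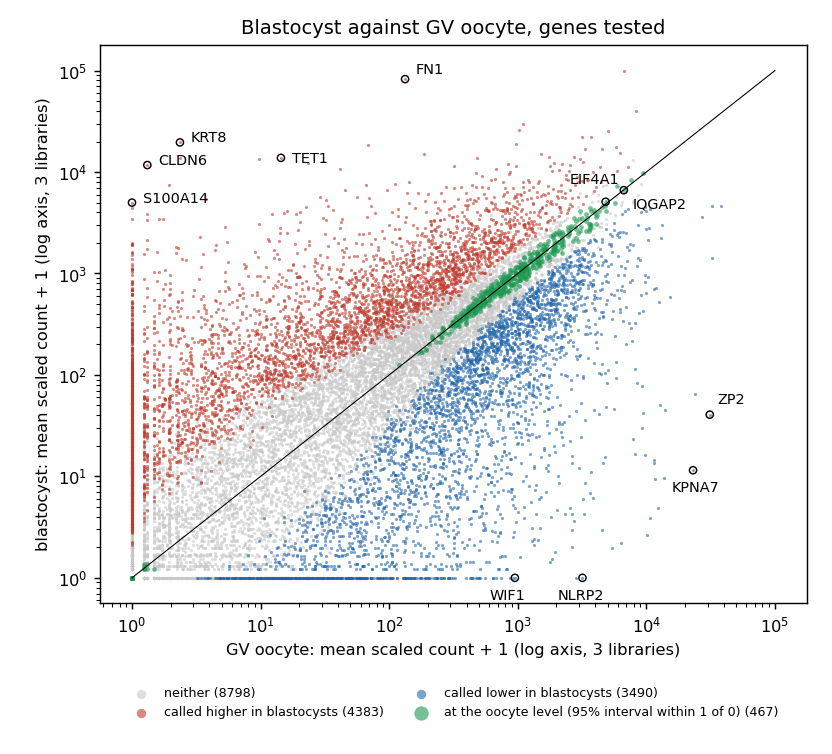
Mean scaled count + 1 of each gene tested in 3 blastocyst libraries (vertical, log axis) and 3 GV oocyte libraries (horizontal, log axis), coloured by class, with equal levels on the diagonal. The 467 genes at the oocyte level lie along the diagonal, while KRT8, CLDN6 and FN1 lie far above it and ZP2, KPNA7 and NLRP2 far below.

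The RNA pool had turned over by the blastocyst stage. Genes called higher took 57.9% to 59.7% of the reads of blastocyst libraries and 11.6% to 11.8% of GV oocyte libraries. Genes called lower took 9.41% to 10.6% of blastocyst reads and 55.5% to 56.0% of GV oocyte reads. Genes at the oocyte level took 6.83% to 8.13% in blastocysts and 7.86% to 8.67% in GV oocytes. These shares describe the classes and are no test, since the calls rest on the same libraries.

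The 8 largest falls included an oocyte importin, a meiotic kinase, a linker histone and a zona protein. KPNA7, an importin of oocytes and early embryos, had 8.66, 13.1 and 9.68 scaled counts in blastocysts and 23493, 22364 and 23394 in GV oocytes. Its level was thus 2199-fold lower in blastocysts (difference -10.65 ± 0.34 SE on the deposited scale, limma adjusted p = 9e-15). Like all 8 falls, it was chosen among genes without overlap between the libraries. WEE2, the kinase that holds CDK1 inactive in oocytes, had 2.67, 0 and 0.968 in blastocysts and 6983, 6314 and 5714 in GV oocytes (-10.70 ± 0.38, limma adjusted p = 2.2e-14). H1FOO, the linker histone of oocytes, had 2, 0 and 0.968 in blastocysts and 8287, 4877 and 3088 in GV oocytes (-10.42 ± 0.48, limma adjusted p = 1.2e-12). FANK1, ZP4, ACCSL, NLRP2 and PRSS2 completed the group, with differences of -11.21 to -10.29 and no blastocyst library above 6.67 scaled counts.

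The fall was deep for most genes called lower. Among 3387 of them with at least 10 scaled counts in GV oocytes, the median gene kept 11.2% of its oocyte level, 1606 (47.4%) kept under 10% and 630 (18.6%) kept under 1%. Against the same GV oocytes, 0.613% of all genes were lower and 0.0992% higher at MII, 2.7% and 0.397% at 4 cells, 9.5% and 9.45% at 8 cells, and 22.8% and 19.5% at 16 cells. For most genes lower in blastocysts the unbroken call began after the 8-cell stage. The call against GV oocytes held without a break from MII for 13 genes, from the 4-cell stage for 56, from the 8-cell stage for 446 (12.8%) and from the 16-cell stage for 1846 (52.9%). For 1129 (32.3%) it held from the blastocyst, with no such call at 16 cells. Some of these, such as PSMB1, had been called lower at an earlier stage. These comparisons share the GV oocyte libraries. Without 16-cell replicate 1, the library with the fewest detected genes of the series, the 16-cell stage accounted for 47.6% and the blastocyst for 36.7%.

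Transcripts lost for good were defined by reads: 0 reads in all 3 blastocyst libraries, with at least 1 read in each GV oocyte library and a mean of at least 10 scaled counts there. In total 356 genes met this (2.08% of those tested), with a median of 32.9 scaled counts in GV oocytes, and 81 of them had at least 100. They took 0.523% to 0.646% of GV oocyte reads. A count of 0 over the blastocyst libraries allows up to 3 counts, or 0.871 scaled counts. This bound covers counting error only, because amplified reads are not independent molecules.

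NLRP2, of the NLRP family of the subcortical maternal complex, had 0 reads in each blastocyst library and 3239, 3471 and 2850.2 scaled counts in GV oocytes, at least 3661-fold lower in blastocysts. PRSS2, a trypsinogen, had 0 reads in blastocysts and 4158, 2404 and 1905 in GV oocytes (at least 3242-fold lower). PDE3A, the phosphodiesterase that breaks down cAMP in the oocyte and so controls meiotic arrest, had 0 reads in blastocysts and 646, 830.1 and 744 in GV oocytes (at least 850.1-fold lower). WIF1, a secreted inhibitor of WNT ligands, and TECTB, a tectorin related to zona proteins, were likewise at 0 reads in blastocysts, with means of 949 ± 74.8 and 923 ± 209 in GV oocytes (SD, n = 3). SRGN, the granule proteoglycan serglycin, spread widest among the 6: its 37, 364 and 2225 in GV oocytes rest mostly on replicate 3, which was also highest for the granulosa markers FSHR (94.6) and CYP19A1 (74.8). What share of that signal came from adhering cells was not tested. Over 11 cumulus and granulosa markers the sums were 282 to 522 in blastocysts and 1169.9 to 2198 in GV oocytes. The GV oocyte sums came mostly from HAS2 and VCAN, which still had 1434 ± 666 and 707 ± 211 at 8 cells. CYP19A1 went the other way, with 459.9, 333 and 224 in blastocysts and 8.53, 19.8 and 74.8 in GV oocytes. FOXL2, TNFAIP6 and LHCGR had 0 reads in all GV oocytes, and INHA and GREM1 had 0 reads in all blastocysts.

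The lost transcripts left late. The last stage with reads in all 3 libraries was the GV oocyte for 27 genes, MII for 26, the 4-cell stage for 92, the 8-cell stage for 159 and the 16-cell stage for 52. This split depends on depth. Replicates 2 and 3 of the 16-cell stage had 2438473 and 3763632 reads, and 16-cell replicate 1 had reads in only 11970 genes. NLRP2 had 1956 ± 133 in MII oocytes, 1762 ± 282 at 4 cells, 276 ± 180.2 at 8 cells and 37.1 ± 64.2 at 16 cells. TECTB took another course, with 1577 ± 300, 1998 ± 89 and 1976 ± 689.7 at MII, 4 cells and 8 cells, 1.06 above the oocyte at the 8-cell stage on the deposited scale (limma adjusted p = 0.05), before 189 ± 87.8 at 16 cells. A single gene, CXHXORF41, had reads in GV oocytes alone (3.79, 29.7 and 13.2) and 0 in all 15 later libraries.

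**Figure D2:**
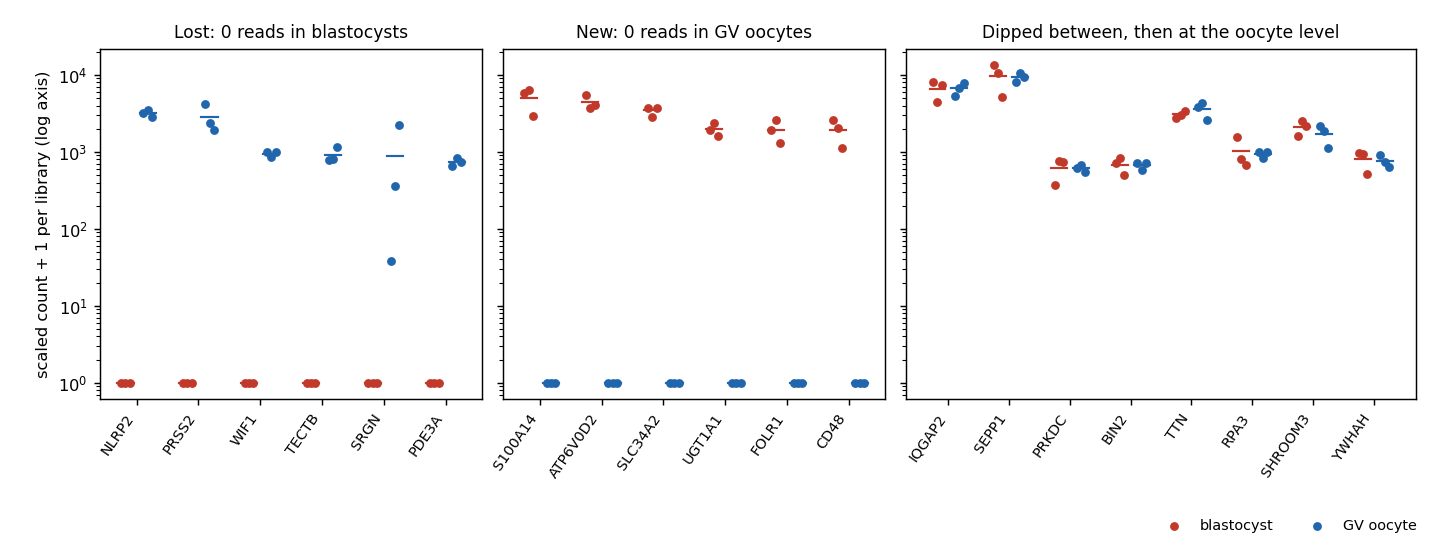
Scaled count + 1 per library (log axis) for the 6 lost and 6 new genes with the highest means and the 8 genes with the deepest dip among those back at the oocyte level, with blastocyst points left of GV oocyte points and bars at group means. Lost and new genes lie at 1, that is 0 reads, in all 3 libraries of one stage; SRGN spreads from 37 to 2225 scaled counts in GV oocytes.

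All gene lists, here and below, are read against 20.4% lower and 25.6% higher over all genes tested, and were not tested as lists. All 3 measured zona pellucida genes, which encode the egg coat, were lower (median difference -9.44). ZP2 had 44.7, 37.2 and 36.8 in blastocysts and 28331, 23773 and 41345 in GV oocytes, 787-fold lower in blastocysts (-9.44 ± 0.33, limma adjusted p = 2.2e-14). Of 14 maternal-effect genes, 12 were lower, 1 was higher and 1 was neither (median -6.69). NLRP9, ZAR1 and NLRP5 had differences of -10.11, -9.47 and -9.47, with 1.01 ± 0.971 for ZAR1 in blastocysts and 2628 ± 412 in GV oocytes. TRIM28, a corepressor that protects imprints and works in most cells, was the exception at 1785 ± 985 in blastocysts and 591 ± 186 in GV oocytes (1.49 ± 0.47, limma adjusted p = 0.013), and this call ended without GV oocyte replicate 3 or without blastocyst replicate 2.

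Of 9 oocyte transcription factors, 6 were lower, among them FIGLA (-9.23), TBPL2 (-7.06) and NOBOX (-6.75), which drive oocyte genes. TAF4B, a TFIID subunit of germ cells, was higher, with 585, 696 and 559 in blastocysts and 133, 279 and 170.2 in GV oocytes (1.70 ± 0.30, limma adjusted p = 0.00011). Among 8 oocyte growth factors and secreted proteins, 4 were lower and none higher. GDF9 had 8.66, 35.1 and 1.94 in blastocysts and 10579, 8035 and 10518 in GV oocytes, and BMP15 18.7, 92 and 22.3 in blastocysts and 13235, 14173 and 14262 in GV oocytes. OOSP1 and BMP6 were the others (-8.81 and -3.42). PTX3, KITLG, AMH and NPPC, which follicle cells also make, were not called.

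Of 17 genes for the storage and tail control of messenger RNA, 11 were lower, 2 higher and 1 at the oocyte level (median -2.52). The lower included BTG4, an adaptor of the CCR4-NOT deadenylase, at 64.2 ± 64.7 in blastocysts and 23962 ± 3840.3 in GV oocytes (-9.06), CPEB1, which directs polyadenylation (-8.62), and DAZL (-7.25). ZFP36L2, which binds AU-rich elements and promotes messenger RNA decay, was higher, with 1239.7, 939.9 and 686 in blastocysts and 132, 235 and 122 in GV oocytes (5.86-fold, limma adjusted p = 8.8e-05). ZCCHC11 and ZCCHC6, the terminal uridylyltransferases TUT4 and TUT7, did not move alike. ZCCHC11 had 809.8, 765 and 1293 in blastocysts and 128, 67.8 and 76.3 in GV oocytes (3.35 ± 0.68, limma adjusted p = 0.0004), and ZCCHC6 was at the oocyte level.

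Of 31 meiosis and egg arrest genes 18 were lower and 2 higher, the median being -1.86. MOS, the kinase of the egg's metaphase arrest, had 0.81 ± 0.711 in blastocysts and 1939 ± 1093 in GV oocytes (-8.96 ± 0.90, limma adjusted p = 8.9e-08). REC8, a meiotic cohesin, and SYCP2, of the synaptonemal complex, were the 2 higher (2.36 and 1.43), and each call ended without GV oocyte replicate 1, GV oocyte replicate 2 or blastocyst replicate 3, that of REC8 also without blastocyst replicate 2. BUB1B and CDC20, which mitosis also needs, were not called (-0.36 and -0.38). On the egg surface, 5 of 8 genes were lower, ASTL (ovastacin, which hardens the zona) by the most (-8.09), while the tetraspanin CD9 had 8955, 6406 and 8709 in blastocysts and 181, 103 and 138 in GV oocytes (5.81 ± 0.39, limma adjusted p = 3.1e-10). Of 9 linker histones and variants 4 were lower, 3 higher and 1, H3F3B, at the oocyte level (median -0.86). Beside H1FOO, H2AFX and H1F0 were 6.45-fold and 4.61-fold lower, and H2AFZ was 169.7-fold higher at 5292 ± 1052 in blastocysts and 31.2 ± 11.3 in GV oocytes. Reads of the NLRP and histone families may be shared among close copies.

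**Figure D3:**
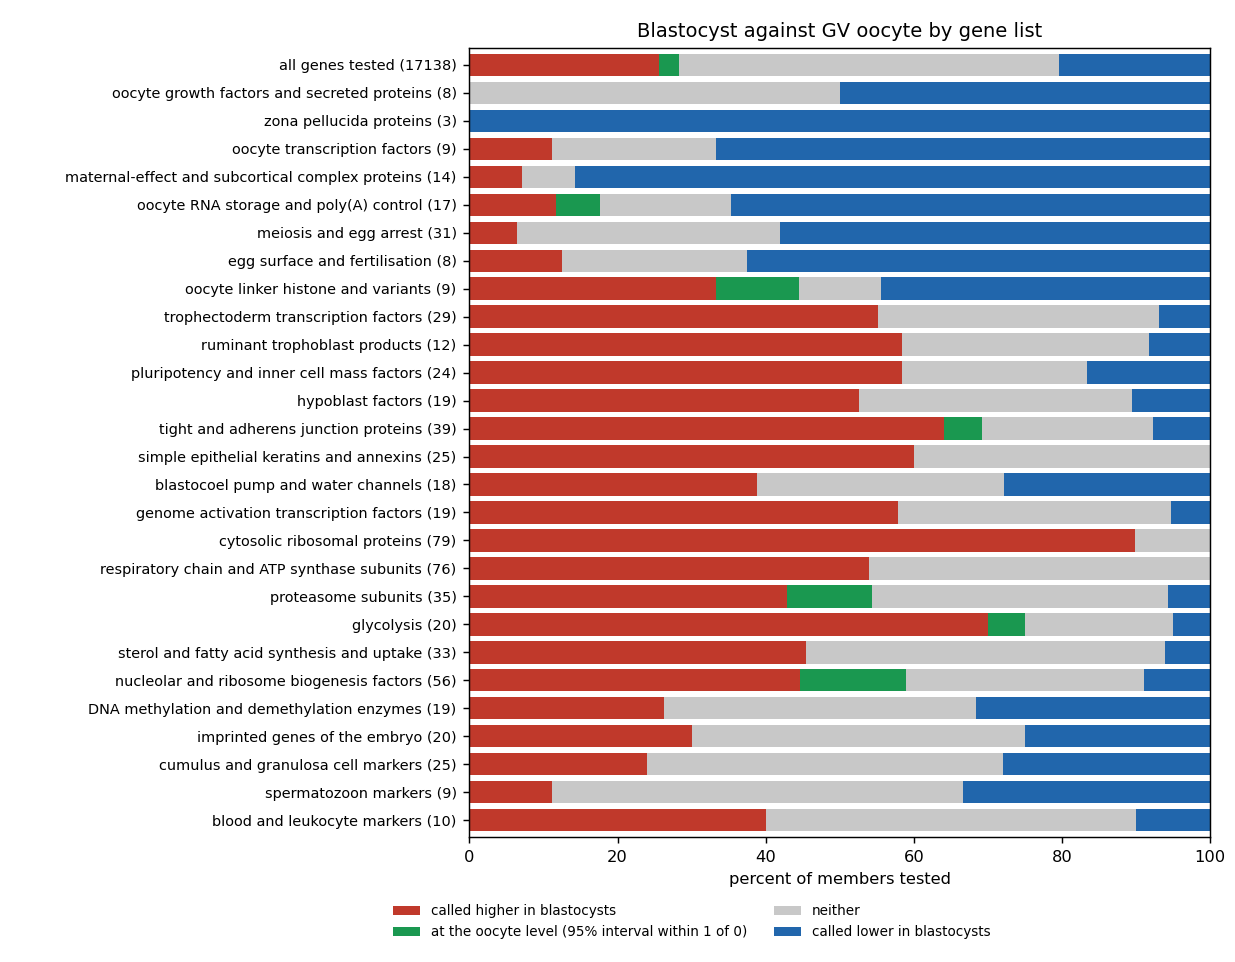
Percent of tested members (horizontal) called higher, at the oocyte level, neither or called lower in blastocysts against GV oocytes, for all 17138 genes and for 27 lists with their sizes. Zona (3 of 3) and maternal-effect genes (12 of 14) are mostly lower, and 71 of 79 ribosomal protein genes are higher.

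The 8 largest rises included a claudin, a keratin pair and a trophoblast gene. CLDN6, a claudin of tight junctions, had 8965, 16839 and 9339 scaled counts in blastocysts and 0.948, 0 and 0 in GV oocytes (12.04 ± 0.82, limma adjusted p = 3.5e-10). KRT8 and KRT18, the keratin pair of simple epithelia, had 19587 ± 8018 and 13818 ± 6365 in blastocysts and 1.36 ± 0.602 and 1.37 ± 1.19 in GV oocytes (11.98 ± 0.97 and 11.63 ± 0.99). PLAC8, a trophoblast gene of cattle embryos, had 8827, 9918 and 3386 in blastocysts and 2.84, 0 and 0 in GV oocytes (11.08 ± 0.85, limma adjusted p = 1.8e-09). Absence of overlap between the libraries was a condition for choosing all 8 rises. S100A14, ATP6V0D2, AHNAK and SLC34A2 completed the group with differences of 10.65 to 11.11.

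Of 4073 genes called higher with at least 10 scaled counts in blastocysts, 2155 were over 10 times their oocyte level or had no oocyte reads. Here too most unbroken calls began at the 16-cell stage or the blastocyst. The call held from MII for 1 gene, from the 4-cell stage for 15, from the 8-cell stage for 773 (17.6%) and from the 16-cell stage for 1354 (30.9%). Again some genes without a call at 16 cells, such as TNP1, had been called higher earlier. With these included, the call held from the blastocyst for 2240 (51.1%), against 32.3% of the lower genes. That difference between directions was not tested. Without 16-cell replicate 2, the shallowest library of the series, the blastocyst accounted for 55.7% of the higher genes and for 36.0% of the lower ones.

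By the mirror of the rule for lost genes, 627 genes were new (3.66% of those tested): reads in each blastocyst library at a mean of at least 10 scaled counts, and 0 reads in all GV oocyte libraries. Their median was 38.9, and 145 had at least 100. They took 1.13% to 1.6% of blastocyst reads. Here a count of 0 allows up to 0.783 scaled counts in GV oocytes.

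S100A14, an S100 protein of epithelia, had 5787, 6314 and 2888 in blastocysts and 0 reads in GV oocytes, at least 6385-fold higher. ATP6V0D2, a subunit of the vacuolar proton pump, had 5423, 3774 and 4050.1 in blastocysts and 0 reads in GV oocytes (at least 5643-fold higher). SLC34A2, a sodium-phosphate cotransporter, had 3716, 2882 and 3771 in blastocysts and 0 reads in GV oocytes (at least 4417-fold higher). UGT1A1, an enzyme of glucuronidation whose exons are shared with other UGT1A transcripts, CD48, a cell surface glycoprotein of the immunoglobulin superfamily, and FOLR1, the folate receptor, had 1982 ± 380.5, 1905 ± 738 and 1939.8 ± 674 in blastocysts and 0 reads in GV oocytes. Every one of these 18 blastocyst values lay above 1100 scaled counts.

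They did not begin together. The first stage with reads in all 3 libraries was MII for 13 of the new genes, the 4-cell stage for 11, the 8-cell stage for 95, the 16-cell stage for 105 and the blastocyst for 403. FOLR1 had 0.563 ± 0.974 at 4 cells, 781 ± 542 at 8 cells and 4708 ± 2269 at 16 cells, above its blastocyst mean. S100A14 had 0.675 ± 0.657 at 8 cells and 17.9 ± 19.7 at 16 cells. In 68 genes all 15 libraries before the blastocyst were at 0 reads. Chosen after their values were seen, the best covered with a symbol were MMP12, a macrophage elastase (994, 914 and 602), GDPD2 (664, 824 and 646), TMEM144 (645, 366 and 348), VGLL1, a cofactor of TEAD factors (563, 504 and 65.8), IL2RB, an interleukin receptor chain (220, 397 and 216), and TFPI, an inhibitor of coagulation (170, 104 and 193).

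Trophectoderm transcription factors were higher in 16 of 29 cases (55.2%, against 25.6% of all genes) and lower in 2 (6.9%, against 20.4%), with a median of 3.43. The next lists are read against the same shares of all genes. TFAP2C had 4431, 2927 and 2861 in blastocysts and 1.9, 0 and 0 in GV oocytes (10.17 ± 0.54, limma adjusted p = 9.3e-12). TEAD4, which acts upstream of the trophectoderm programme in the mouse, had 237, 446 and 295 in blastocysts and 0 reads in GV oocytes (at least 416-fold higher). GATA3 had 691, 1042 and 927 in blastocysts and 87.2, 74.9 and 71.1 in GV oocytes (3.43 ± 0.98, limma adjusted p = 0.0067). CDX2, the best known of the group, was not called: 213, 130.4 and 88.1 in blastocysts overlapped 79.6, 120.1 and 23.5 in GV oocytes (1.08, interval -0.81 to 2.97). HEY1 and OVOL1 were the 2 lower (-5.18 and -2.30).

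Ruminant trophoblast products were higher in 7 of 12 and lower in 1, CSH2, which had 0 reads in blastocysts and 53.5 ± 25.4 in GV oocytes. PAG2, a pregnancy-associated glycoprotein, had 1777, 2144 and 657 in blastocysts and 0 reads in GV oocytes (at least 1950.1-fold higher). IFNT, interferon tau, the signal by which the ruminant conceptus maintains the corpus luteum, had 438, 1184 and 218 in blastocysts and 0 reads in GV oocytes (at least 784-fold higher). PTGS2, the inducible prostaglandin synthase, had 16265, 9339 and 6412 in blastocysts and 586, 622 and 832 in GV oocytes (15.7-fold higher). The PAG and interferon tau genes have many close copies and may share reads. Blastocyst replicate 3 was lowest for each of these 3 genes and for PLAC8. It was highest for the summed hypoblast list at 158586 scaled counts, against 131964 and 107108 in blastocyst replicates 1 and 2. Most of the sum in replicate 3 came from 1 gene, FN1 (103328). The summed trophectoderm transcription factors were not lowest there, with 22513, 19730.4 and 22577 in blastocyst replicates 1, 2 and 3. The make-up of the pools in cells was not measured.

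The hypoblast list had 10 of 19 members higher and 2 lower (median 3.22). FN1, fibronectin, had 80479, 63450.3 and 103328 in blastocysts and 128, 169 and 99.7 in GV oocytes, 623-fold higher (9.24 ± 0.66, limma adjusted p = 6.6e-10). PDGFRA and GATA6 had 3461 ± 708 and 3924 ± 615 in blastocysts and 0.733 ± 1.27 and 14.2 ± 17.6 in GV oocytes. LRP2, an endocytic receptor of visceral endoderm, had 29485 ± 5212 in blastocysts and 1105 ± 233 in GV oocytes (26.7-fold higher). LAMC1, a laminin chain, was among the lower (-1.06).

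Pluripotency and inner cell mass factors were higher in 14 of 24 cases and lower in 4 (median 2.63). POU5F1 (OCT4) was present at both ends, with 1849.6, 3738 and 1735 in blastocysts and 382, 215 and 218 in GV oocytes (8.98-fold higher, limma adjusted p = 1.4e-06). NANOG had 316, 86.5 and 102 in blastocysts and 0.948, 0 and 0 in GV oocytes, yet 1537 ± 547 at 16 cells. ZFP42 (REX1), SPIC and ESRRB had differences of 10.19, 9.47 and 7.83. SOX2 was not called, with 85.3, 232 and 251 in blastocysts and 163, 147 and 225 in GV oocytes. GDF3, KLF2, STAT3 and SALL4 were the 4 lower. STAT3, which relays LIF signals, had 1558, 1332 and 2225 in blastocysts and 7641, 9003 and 5449.5 in GV oocytes (4.32-fold lower, limma adjusted p = 0.00023).

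Cell junction genes were higher in 25 of 39 cases and lower in 3, and 2 were at the oocyte level (median 2.66). Next to CLDN6 stood DSC2, a desmosomal cadherin, and CLDN4, with 1092 ± 388 and 822 ± 367 in blastocysts and 0 reads in GV oocytes. The lower claudins were CLDN10 and CLDN1. CLDN10 had 595, 1119.6 and 639 in blastocysts and 3294, 2981 and 3318 in GV oocytes (4.08-fold lower, limma adjusted p = 0.0037), and CLDN1 lost its call without GV oocyte replicate 3 or blastocyst replicate 3. Among 25 keratins, annexins and S100 proteins 15 were higher and none lower (median 3.80).

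Of the cavity's pump and channel genes, 7 of 18 were higher (38.9%, against 25.6% of all genes) and 5 lower (27.8%, against 20.4%), with a median of 0.98. The beta subunits of the sodium pump moved both ways. ATP1B3 had 11037, 6714 and 5325 in blastocysts and 97.6, 119 and 117 in GV oocytes (69.3-fold higher), and ATP1B1 had 3.33, 5.48 and 6.78 in blastocysts and 92, 97.5 and 106 in GV oocytes (18.9-fold lower), while ATP1B2 was higher (6.54). The water channel AQP3 was 11.2-fold higher in blastocysts, and the chloride channel CFTR 86.5-fold lower.

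Few genes could be shown to be back at the oocyte level. Of the 467 genes at that level, 428 had at least 10 scaled counts in GV oocytes. For 221 of the 467 no stage between was called different from GV oocytes. Another 81 (0.473% of genes tested) had dipped, meaning a called fall of at least 1 at a stage between and a called gain from the lowest stage to the blastocyst, and 132 (0.77%) had peaked and declined by the mirror rule. The last step of the rule rests on blastocysts against each stage between, where 28.4% of all genes were higher and 21.1% lower against MII, 29.3% and 20.5% against 4 cells, 26.9% and 20.0% against 8 cells, and 18.2% and 13.1% against 16 cells. The count changed with the libraries used, and the reason was not tested. When any 1 of the 6 libraries was left out, 249 to 325 genes were at the oocyte level, 30 to 45 of them after a dip and 79 to 105 after a peak. In all 6 of these fits 77 of the 467, 10 of the 81 and 25 of the 132 were kept. Just inside the margin stood VPS53 and RYBP, with a larger interval bound of 0.999, and just outside it RLF and POLR3A at 1.0.

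The deepest dip with a return was that of IQGAP2, a scaffold protein that binds CDC42 and RAC1. It had 8192, 4393 and 7294 in blastocysts and 5307, 6813 and 7945 in GV oocytes, which overlap (difference -0.04, interval -0.66 to 0.58). In between it had 11182 ± 1419.9 at MII, 7051 ± 2537 at 4 cells, 2278 ± 527 at 8 cells and 281 ± 58 at 16 cells, 4.55 below the oocyte on the deposited scale. It was at the oocyte level in all 6 fits with a library left out. PRKDC, the catalytic subunit of DNA-dependent protein kinase, had 373, 754 and 742 in blastocysts, 620, 670.4 and 552 in GV oocytes and 53.6 ± 15.4 at 16 cells. SEPP1, selenoprotein P, had 13461, 10646 and 5146 in blastocysts, 8172, 10536 and 9379 in GV oocytes and 573 ± 386 at 16 cells, and titin (TTN), the giant sarcomere protein, had 3072 ± 336 in blastocysts, 3578 ± 912 in GV oocytes and 537 ± 89.8 at 16 cells. BIN2, SHROOM3 and YWHAH had the same low point at 16 cells, and RPA3, a subunit of the single-strand binding protein of replication, its low point at 8 cells (152 ± 57.7). TTN was at the oocyte level in 5 of the 6 fits, PRKDC and SHROOM3 in 2, YWHAH in 1 and SEPP1, BIN2 and RPA3 in none.

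Beside IQGAP2, the genes kept in all 6 fits after a dip were EXOC2, GNAI3, LMBRD1, NBAS, PSMA7, SOS1, TJP1, TMEM131 and TMEM48. TJP1, the tight junction scaffold ZO-1, had 4114, 3042 and 3387 in blastocysts, 3375, 3463 and 3515 in GV oocytes and 1298 ± 228 at 8 cells. PSMA7, a subunit of the proteasome core, had 2235 ± 823 in blastocysts, 2213 ± 165 in GV oocytes and 499 ± 133 at 8 cells. The low point of the 81 was at 16 cells for 45, at 8 cells for 26, at 4 cells for 9 and at MII for 1, COPS9, with 1083 ± 158 in blastocysts, 878 ± 103 in GV oocytes and 256 ± 69.6 in MII oocytes.

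The highest peak with a return was that of ZCCHC6 (TUT7), which adds uridines to RNA ends. Its 751, 644 and 1099.6 in blastocysts overlapped 639.9, 717 and 1035 in GV oocytes, while it had 13111 ± 5682 at 8 cells and 31325 ± 4888 at 16 cells, 5.31 above the oocyte on the deposited scale. This held in all 6 fits. UBE2C, a ubiquitin-conjugating enzyme of the anaphase-promoting complex, had 1566 ± 89.9 in blastocysts, 1291 ± 273 in GV oocytes and 8951 ± 3368 at 16 cells. TCEB1 (elongin C), SEC24B (a COPII coat protein), NUDT4 (a diphosphoinositol phosphatase) and MGC128175 also stood highest at 16 cells, by 2.63 to 2.94. With a library left out, MGC128175 was at the oocyte level in 4 of the 6 fits, TCEB1, SEC24B and NUDT4 in 3, and UBE2C in 2. CEL and ADAMTS8, also among the highest peaks, had 0 reads at both ends and 25.8 ± 12.1 and 20.3 ± 15.8 at 8 cells, so their return is one to no detected RNA, and they were kept in none of the 6 fits. Of the 132, 84 stood highest at 16 cells, 39 at 8 cells, 6 at 4 cells and 3 at MII.

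Among the genes that no stage called different, the 5 with the highest mean count, not corrected for length, were EIF4A1, NIPBL, USP34, GDI2 and VAMP3. EIF4A1 and GDI2 were level in all 6 fits with a library left out, USP34 in 5, and NIPBL and VAMP3 in 3. EIF4A1, the helicase of translation initiation, had 5157, 4743 and 5377 in blastocysts and 4891, 5393 and 4192 in GV oocytes (interval -0.36 to 0.53), with stage means of 4563 to 6545 in between.

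**Figure D4:**
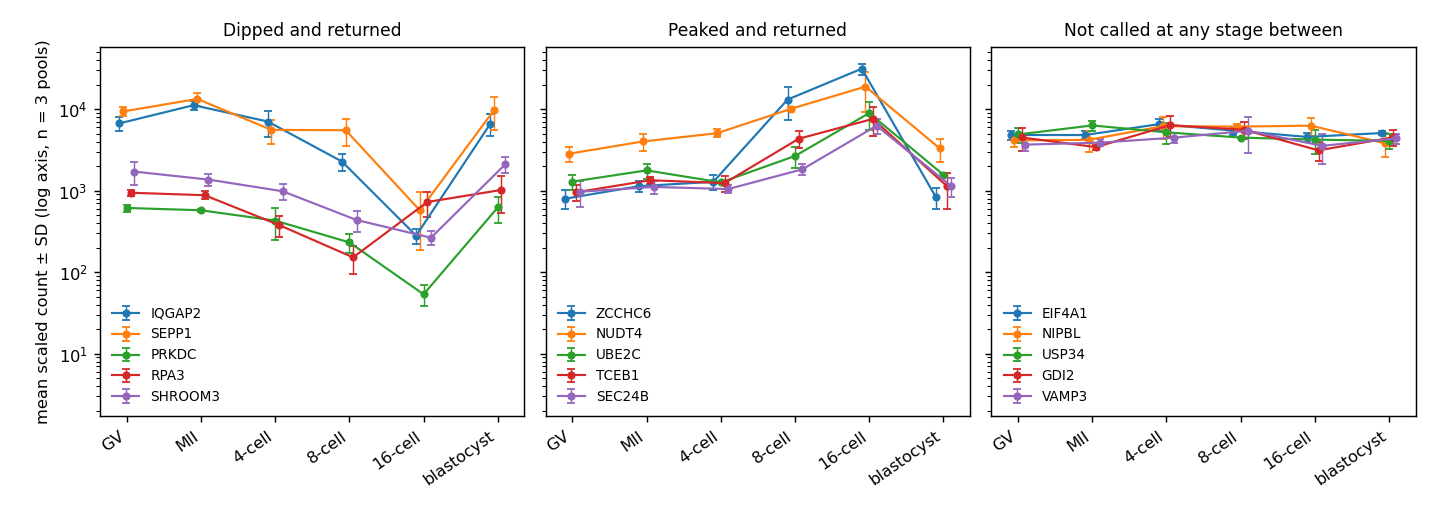
Mean scaled count ± SD (log axis, n = 3 pools per stage) from the GV oocyte to the blastocyst for 5 genes that dipped and returned, 5 that peaked and returned and 5 not called at any stage between. IQGAP2 goes down to 281 and ZCCHC6 up to 31325 at 16 cells, and both end near their oocyte level.

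More genes regained or declined without ending at the oocyte level. A called dip of at least 1 at a stage between was seen in 4720 genes, and 1957 of them regained a called amount by the blastocyst. Of these 1957, 81 were at the oocyte level, 159 were still called lower, 368 were called higher and 1349 were not resolved. Of 3700 genes with a called peak, 1219 declined by a called amount. Of these 1219, 132 were at the oocyte level, 228 still called higher, 143 called lower and 716 not resolved. All these comparisons share the GV oocyte and blastocyst libraries, so the counts are a description.

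ANK3, an ankyrin, had 125, 223 and 56.1 in blastocysts and 608, 753 and 644 in GV oocytes (4.95-fold lower, limma adjusted p = 0.0036), after 6.95 ± 6.54 at 16 cells. GGH (a lysosomal folate hydrolase), DUT (dUTPase) and PSKH1 (a kinase) likewise regained in part, with 40.9 ± 17.2, 425 ± 193 and 181 ± 90.4 in blastocysts and 228 ± 67.4, 937 ± 189 and 714 ± 262 in GV oocytes. At their lowest stage they had 0, 27.8 ± 9.52 and 13.1 ± 11.3. Their calls against GV oocytes (limma adjusted p = 0.044, 0.025 and 0.017) ended when single libraries were left out: for GGH any 1 of the 6, for DUT GV oocyte replicate 1 or 3 or blastocyst replicate 3, and for PSKH1 GV oocyte replicate 1 or 2 or blastocyst replicate 1. On the other side, PTGS2 had 10672 ± 5059.7 in blastocysts and 679.8 ± 133 in GV oocytes, with 12.2 ± 7.13 at 16 cells. GATA6 had 0 reads at 4 cells, and SLC25A3, the mitochondrial phosphate carrier, and ITM2B had 0.751 ± 0.859 and 3.12 ± 1.74 there. Their levels were 277-fold, 208-fold and 81.5-fold higher in blastocysts than in GV oocytes.

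Many genes of translation and respiration dipped and ended above the oocyte. Of 79 cytosolic ribosomal protein genes 71 were higher in blastocysts (89.9%, against 25.6% of all genes) and none lower (median 2.34). Of the 79, 57 had dipped before, each of which regained. Over all 17138 genes tested, 4720 had dipped and 1957 had dipped and regained. The median difference from GV oocytes was -1.0 at MII, -1.92 at 4 cells, -0.39 at 8 cells and 2.08 at 16 cells. RPS27 had 8281, 9317 and 4794 in blastocysts, 444, 398 and 482 in GV oocytes and 38.2 ± 21.7 at 4 cells (16.9-fold higher in blastocysts, limma adjusted p = 3.5e-08). FAU, whose product is ribosomal protein S30 fused to a ubiquitin-like domain, dipped to 56 ± 14.4 at 4 cells and was not called at the end, with 1258, 1403 and 1055 in blastocysts and 1988, 1551 and 1839 in GV oocytes. Summed over the list, blastocyst replicate 3 had 245114 scaled counts, against 454249.7 and 438852 in blastocyst replicates 1 and 2, and the GV oocytes had 103834, 64750.2 and 68001. Ribosomal protein genes have processed pseudogenes that may share their reads.

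Of 76 genes of the respiratory chain and ATP synthase 41 were higher in blastocysts (53.9%, against 25.6% of all genes) and none lower. Of the 76, 63 had dipped and regained. A dip with a regain was seen in 1957 of all 17138 genes tested. Their median was -1.52 at MII, -2.58 at 4 cells, -2.19 at 8 cells, -0.05 at 16 cells and 1.56 in blastocysts. ATP5B, the catalytic subunit of ATP synthase, had 18076, 20734 and 17362 in blastocysts and 820.1, 877 and 1199.9 in GV oocytes (19.4-fold higher, limma adjusted p = 3.7e-08). COX5B, of cytochrome c oxidase, had 2253 ± 689 in blastocysts, 1281 ± 215 in GV oocytes and 44.2 ± 21.9 at MII, and the end points did not differ by the test (0.78, interval -0.33 to 1.89).

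Other household lists were more mixed, read against 25.6% higher and 20.4% lower over all genes tested. Of 35 proteasome genes 15 were higher, 2 lower and 4 at the oocyte level. PSMA1 was 127-fold higher (1567 ± 969.8 in blastocysts and 12.4 ± 10.6 in GV oocytes), beside PSMA7, which was level. Of 56 nucleolar and ribosome biogenesis genes 25 were higher, 5 lower and 8 at the oocyte level, 14.3% of the list against 2.72% of all genes. Their median was 1.73 at 16 cells and 0.92 in blastocysts, and 11 had peaked and declined, against 1219 of all 17138 genes tested. Glycolysis had 14 of 20 genes higher and 1 lower. SLC2A3, a glucose transporter, was 103-fold higher in blastocysts (5666 ± 1251 in blastocysts and 55 ± 30.2 in GV oocytes), whereas LDHA, lactate dehydrogenase A, had 924, 794 and 704 in blastocysts and 3215, 4134 and 6286 in GV oocytes (5.63-fold lower, limma adjusted p = 4.6e-06). Of 33 genes of sterol and fatty acid synthesis 15 were higher and 2 lower, with FASN at 4296 ± 1647 in blastocysts and 291 ± 134 in GV oocytes.

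Genes of the genome activation list, most of them transcription factors, had mostly been high in between. Of 19, 18 had peaked and 14 had declined since, against 3700 and 1219 of all 17138 genes tested. In blastocysts 11 of the 19 were still higher than in GV oocytes and 1 was lower. The median was 6.11 at 8 cells, 5.57 at 16 cells and 1.85 in blastocysts. The lower gene, RARRES2, encodes a secreted protein, not a transcription factor, and lost its call without GV oocyte replicate 3 or blastocyst replicate 3. KLF17 had 128, 127 and 171 in blastocysts, 0.948, 0.706 and 0 in GV oocytes and 8457 ± 1677 at 8 cells. DUXA had 26.7, 83.3 and 31 in blastocysts, 13.3, 9.18 and 9.53 in GV oocytes and 16448 ± 6769 at 16 cells. ZSCAN4 was not called at the end, at 5.63 ± 6.06 in blastocysts and 4.02 ± 2.91 in GV oocytes after 3087 ± 353 at 8 cells.

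**Figure D5:**
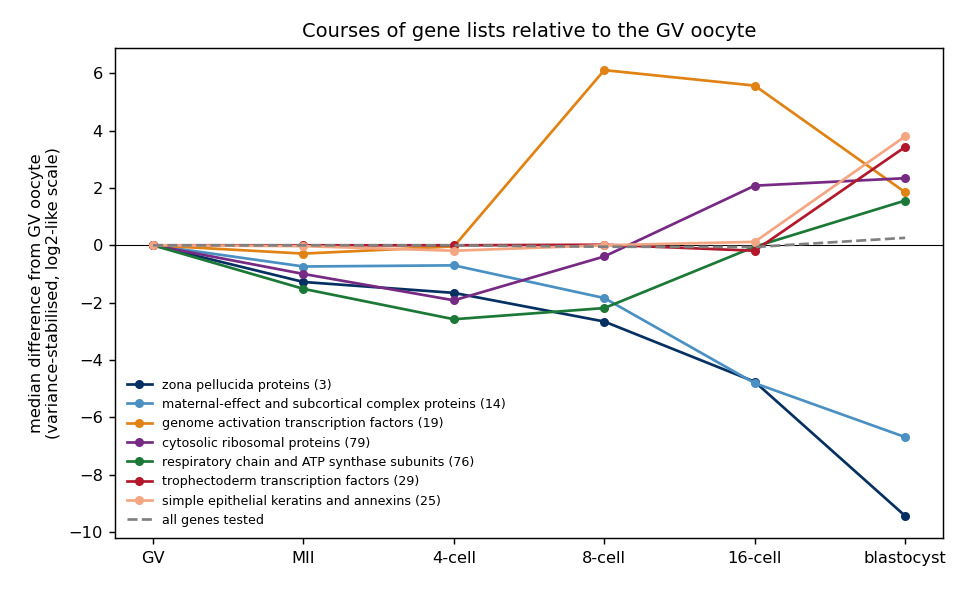
Median difference from the GV oocyte (vertical, deposited log2-like scale) at each stage for 7 gene lists and for all genes tested (dashed). Ribosomal and respiratory genes are lowest at 4 cells (-1.92 and -2.58) and end above the oocyte, trophectoderm factors and keratins stay within 0.19 of 0 up to 16 cells, and zona genes end at -9.44.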

How the data were processed

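RNA of pools of 10 oocytes or embryos was amplified with the NuGEN Ovation kit from mixed random and poly(A) primers and sequenced as single reads of 80 bases, per the labels' protocols. The method does not mark strand, so overlapping genes on opposite strands cannot be told apart. The authors deposited 1 table of log2-like, variance-stabilised values for 21668 genes. The submitters' processing notes name CASAVA 1.6, TopHat2 2.0.3, HTSeq, DESeq and the build UMD3.1; how genes were annotated and how reads with several matches were counted is not given in the sources used here. Inverting the transformation gave whole reads for all 390024 values (tolerance 0.0001). The scaled count is reads times the recovered factor, which equals a median-of-ratios factor.

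Gene names come from the table. An NCBI RefSeq table of assembly ARS-UCD2.0, used for names only, matched 18745 genes and gave symbols to 2564 of 5890 locus numbers (among them TET1, GATA6, DUXA, ZFP42, LRP2, GDF3, KLF2 and COPS9).

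limma 3.58.1 in R 4.3.3 was fitted to the deposited log2 values by stage over 18 libraries, with a variance trend, two-sided. A gene needed a read in 3 or more libraries to enter the test, with Benjamini-Hochberg adjustment over 17138 genes and a threshold of 0.05. For sparsely read genes these differences fall short of the true change. Voom on the recovered reads called 4739 genes higher and 3631 lower. The procedure was tested on simulated data, drawn from GV oocyte means at an assumed spread with few genes changed in blastocysts. No dips or peaks at stages between were simulated, so the returned classes were not covered. Nothing in the labels says that pools of a stage came from separate cultures, so p-values measure the spread between pools, which may be technical.

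Named genes were the 8 largest differences each way without overlap, the 6 best covered lost and new genes, the 8 deepest dips and highest peaks among returned genes, the 5 best covered level genes, up to 3 members of each of 27 lists each way, and 4 partial and 4 overshooting regains; genes outside the rule were chosen after their values were seen. Members and lists were chosen with earlier results of these data known. Lists received no test, and a few named genes are not reported here. Tables were made in pandas 2.3.3 under Python 3.11.15, and plots in matplotlib 3.10.9. Alternatives are given at the end.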

Additional observations from a re-analysis of the deposited data

How the results depend on the processing

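The counts of genes higher (3139 to 5134) and lower (2668 to 4029) in blastocysts stayed within 1.5 times under every setting run, the fewest being at an adjusted p under 0.01, and so did those of lost (252 to 495) and new genes (471 to 823). The counts at the oocyte level did not. As given, 467 were level, 81 of them after a dip and 132 after a peak. Level genes numbered 303 with library medians set equal, 1499 with no filter on low values, 786 with array weights, 294 with no variance trend, 1 at a margin of 0.5 and 1938 at a margin of 1.5. Genes back after a dip numbered 123 with voom, 157 with array weights, 37 with no variance trend, 0 at a margin of 0.5 and 347 at 1.5. Genes back after a peak numbered 66 with library medians set equal, 206 with array weights, 85 with no variance trend, 1 at a margin of 0.5 and 366 at 1.5. Leaving out each GV oocyte or blastocyst library in turn gave 249 to 325 level genes, 30 to 45 after a dip and 79 to 105 after a peak. The cause was not tested. With the 6 libraries of both stages only, 572 genes were level. Without 16-cell replicate 1, 16-cell replicate 2 or 8-cell replicate 2, alternatives chosen after seeing the data, level genes numbered 561, 516 and 594, those back after a dip 115, 87 and 116, and those back after a peak 137, 147 and 161. With the replicate number as a block, 4537 genes were higher, 3600 lower, 569 level, 111 back after a dip and 163 after a peak. Deviations of blastocyst and GV oocyte libraries with the same number correlated at -0.108, 0.0239 and 0.0767. For libraries with different numbers the correlations ran from -0.181 to 0.161. Whether libraries with the same number share a batch or culture was not tested. The median difference over all genes tested stayed positive in every fit, from 0.0263 with quantile normalization to 0.331 with voom. Signs of single genes with a difference near 0 are not given here. Of 145 named genes called, 13 lost the call in at least 1 of 18 alternative fits (CD14, CLDN1, DUT, ELOVL5, GGH, MPP5, PSKH1, PSMB1, RARRES2, REC8, SYCP2, TRIM28 and ZPBP2). None of 26 named genes at the oocyte level gained a call, but they were chosen for an interval near 0. Genes not called with a wider interval, such as CDX2, SOX2, FAU and COX5B, are not among these 26. Genes under the level of a few reads cannot be placed: a single read was worth up to 1.1 scaled counts in blastocysts.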

Other observations

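Of 19 enzymes of DNA methylation, 5 were higher (26.3%) and 6 lower (31.6%) in blastocysts, against 25.6% and 20.4% of all genes, and the list was not tested. TET1, which oxidises methylcytosine, had 14946, 12217 and 14253 scaled counts in blastocysts and 15.2, 0 and 24.9 in GV oocytes, 1033-fold higher (10.34 ± 0.69, limma adjusted p = 2.5e-10), while TET3 had 29.5 ± 18.8 in blastocysts and 208 ± 112 in GV oocytes (7.05-fold lower, limma adjusted p = 0.00067). The de novo methyltransferase DNMT3A had 3303 ± 387 in blastocysts and 212 ± 87.4 in GV oocytes. The maintenance enzyme DNMT1 and its partner UHRF1 had 516 ± 43.6 and 44.1 ± 10.1 in blastocysts and 3773 ± 535 and 3912 ± 1269 in GV oocytes. No library of one stage overlapped the other for any of these 5 genes, which was so for 56.9% of all genes tested. Of 20 imprinted genes, read against the same shares of all genes, 6 were higher (30.0%), among them GNAS (3796 ± 1228 in blastocysts and 293 ± 119 in GV oocytes) and SNRPN (247 ± 77.7 in blastocysts and 7.09 ± 0.648 in GV oocytes), and 5 were lower (25.0%), among them PLAGL1 (5.98 ± 6.92 in blastocysts and 696 ± 137 in GV oocytes) and PEG10 (2.79 ± 2.74 in blastocysts and 113 ± 9.87 in GV oocytes).

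A start against an end misses what comes and goes in between. With 0 reads in all blastocyst and all GV oocyte libraries, 57 genes had reads in all 3 libraries of the 8-cell or the 16-cell stage at a mean of at least 10 scaled counts. PRAMEF12, named after its values were seen, had 521 ± 306 at 8 cells and 71.7 ± 62.1 at 16 cells.

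TNP1, a transition protein of sperm chromatin, had 170, 962 and 69.7 scaled counts in blastocysts and 0 reads in all GV oocyte libraries (6.76 ± 1.01, limma adjusted p = 1.4e-05), with 0 at MII and 4 cells, 28.2 ± 25 at 8 cells and 0.941 ± 1.63 at 16 cells. PRM1, a protamine, had 0, 60.3 and 7.74 in blastocysts and 0 in GV oocytes. On the longer list of spermatozoon genes TNP1 was the 1 of 9 tested that was higher (11.1%, against 25.6% of all genes). The 3 lower (33.3%, against 20.4%) were LDHC, ZPBP and ZPBP2. They were 69.5-fold, 7.97-fold and 9.78-fold lower in blastocysts, the last a call that ended without GV oocyte replicate 3 or blastocyst replicate 2. Over the 5 spermatozoon markers the sums were 77.4 to 1028 in blastocysts and 0 to 14.1 in GV oocytes, with 2 of the 5 at 0 reads in blastocysts and 4 in GV oocytes. The source of these reads was not tested.

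Of 25 cumulus and granulosa genes 6 were higher (24.0%) and 7 lower (28.0%) in blastocysts, against 25.6% and 20.4% of all genes. HAS2 and VCAN, which form and bind hyaluronan matrix, had 3.3 ± 2.29 and 9.73 ± 7.5 in blastocysts and 729 ± 238 and 848 ± 279 in GV oocytes. CYP17A1, a steroid hydroxylase, had 165, 312 and 219.7 in blastocysts and 0 reads in GV oocytes (at least 297-fold higher).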
